A study of Mus musculus with 36 samples.

Results

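The genes of lipoprotein assembly and secretion were followed in liver and visceral white adipose tissue (visWAT) of adipocyte-specific *Mlkl* knockout mice and their controls. They were taken from the deposited gene table by symbol, 10 genes of 56748, namely *Apoa1*, *Apoa2*, *Apoa4*, *Apoa5*, *Apob*, *Apoc1*, *Apoc2*, *Apoc3*, *Apoe* and *Mttp*, and all 10 were found. Liver and epididymal fat (the visWAT) were taken from each of 18 male C57BL/6J mice, giving 36 libraries of polyadenylated RNA. They were put on chow (normal chow diet, NCD) or on a lipid-rich diet (high-fat diet, HFD) at an age of 16 weeks, and kept on it for 16 weeks. *Mlkl* Adi-KO mice (KO below) carried loxP-flanked *Mlkl*, the gene of the necroptosis executioner MLKL, together with Cre recombinase driven in mature adipocytes. The controls (WT) were littermates with the same loxP-flanked alleles and no Cre, so that every mouse carried the floxed gene. Each tissue had 4 WT and 4 KO mice on NCD and 5 WT and 5 KO mice on HFD, with 1 library per mouse and tissue. Only mature adipocytes were targeted, so hepatocytes kept *Mlkl*, and whole visWAT also held other cells in which it was not deleted.

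Lipoproteins carry triglyceride and cholesterol through blood. Hepatocytes build very low density lipoprotein (VLDL) around apolipoprotein B, which is loaded with lipid by the microsomal triglyceride transfer protein encoded by *Mttp*, and they secrete the apolipoproteins of high density lipoprotein (HDL). Smaller exchangeable apolipoproteins move between particles, where APOC2 activates and APOC3 inhibits lipoprotein lipase, while APOE is the ligand for receptor uptake and is also made by macrophages and adipocytes.

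The deposited values were FPKM, fragments per kilobase of gene scaled to a library size, which allow levels of different genes to be compared per length. Reads on genes came to 20875463 to 25530574 per liver library and 21580696 to 30322171 per visWAT library. *Mlkl* in visWAT was 4.58 to 6.28 FPKM in WT HFD mice against 2.32 to 2.72 in KO HFD mice, and 1.96 to 2.49 in KO NCD mice. In the WT NCD group it was 3.91 to 5.11 in 3 mice and 2.29 in the library labelled WT NCD mouse 182, which lies within the KO NCD range. Marker genes fitted the labelled tissues, with summed mature adipocyte markers of 3808 FPKM or more in each visWAT library and 211 or less in each liver library. In visWAT, 12 macrophage markers summed to 331 to 670 FPKM on NCD and 1108 to 3755 on HFD. Genes of seminal vesicle, which lies beside epididymal fat, reached 247986 FPKM in summed level in WT NCD mouse 183.

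Of the 10 genes, 4 lie in a cluster on chromosome 9 of GRCm39 (mm39), the build of the deposited table. *Apoa1* was placed at chr9:46139878-46141764 on the plus strand, *Apoc3* at chr9:46144231-46146934 on the minus strand, *Apoa4* at chr9:46151994-46154757 and *Apoa5* at chr9:46179931-46183217 on the plus strand. A second group lies on chromosome 7, all on the minus strand, with *Apoc2* at chr7:19405504-19411866, *Apoc1* at chr7:19423406-19426585 and *Apoe* at chr7:19430034-19433113. The other members are apart, *Apoa2* at chr1:171052623-171053948 (plus strand), *Mttp* at chr3:137795615-137850729 (minus strand) and *Apob* at chr12:8027648-8066835 (plus strand). FPKM sum reads over the exons of a gene.

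Some of these values may include reads of neighbouring genes or lack reads shared with them. For overlaps on opposite strands this depends on the strand setting of the counting, which is not given in the sources used here. In the GENCODE vM39 annotation 80.9% of the main *Apoc2* transcript is shared with *Apoc2l* on the same strand, and 69.8% of the *Apoa4* exons are covered on the opposite strand by *Gm10680* and *Gm47528*. In liver *Gm10680* was listed at 0 and *Gm47528* averaged 4.71 FPKM in the WT HFD group, the highest group mean, against 586 FPKM of *Apoa4*. The highest liver group mean of *Apoc2l* was 0.153 FPKM, in KO HFD, against 5.27 FPKM of *Apoc2*. *Apoa2* has 45.6% of its main transcript covered on the opposite strand, and the genes sharing its exon bases are *Tomm40l* and *Gm71631*. In visWAT *Tomm40l* had medians of 2.04, 2.09, 1.90 and 1.99 FPKM in WT NCD, KO NCD, WT HFD and KO HFD. Those of *Apoa2* were 1.83, 3.89, 3.37 and 0.737. *Mttp* has 12.7% of its exon bases covered on the opposite strand by *Trmt10a* and *Gm43691*. In visWAT *Trmt10a* averaged 0.652 FPKM in WT NCD and 0.480 in WT HFD mice, against 0.927 and 0.396 of *Mttp*.

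The promoters of *Apoa1* and *Apoa4* are shown as members of the chromosome 9 cluster of which *Apoa4* passed the threshold for HFD in WT liver and *Apoa1* did not, though whether these 2 responses differ was not tested. Each is the 250 bases before the start of the main GENCODE vM39 transcript, on the plus strand of GRCm39, at chr9:46139628-46139877 and chr9:46151744-46151993. Capitals mark matches to 5 short motifs searched on both strands, namely the TATA box TATAAA, an HNF4 core AAAGTCCA, a short HNF1 motif GTTAAT, a short cAMP response element TGACGT and a nuclear receptor core AGGTCA.
Apoa1: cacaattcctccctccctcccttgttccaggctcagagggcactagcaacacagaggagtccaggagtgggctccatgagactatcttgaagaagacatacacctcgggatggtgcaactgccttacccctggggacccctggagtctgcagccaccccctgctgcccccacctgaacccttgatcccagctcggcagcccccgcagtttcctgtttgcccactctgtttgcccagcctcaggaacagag
Apoa4: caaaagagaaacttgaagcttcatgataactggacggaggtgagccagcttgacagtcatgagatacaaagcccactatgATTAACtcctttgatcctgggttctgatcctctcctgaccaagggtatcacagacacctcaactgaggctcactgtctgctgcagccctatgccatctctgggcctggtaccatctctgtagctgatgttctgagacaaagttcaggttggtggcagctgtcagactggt
The *Apoa1* window held no match. Only exact matches were marked, so other forms of a motif, among them other HNF4 sites, would stay unmarked. The *Apoa4* window held 1, GTTAAT on the other strand from base -170 to base -165, a motif found in 6.28% of 21757 promoters of protein-coding genes. The same search before the main start of *Apoc3* gave TATAAA at -68 and AGGTCA at -124 (other strand) and -60, and before that of *Apoa5* TATAAA at -113. TATAAA was present in 11.9%, AGGTCA in 13.1% and AAAGTCCA in 1.03% of promoters. These windows of *Apoc3* and *Apoa5* lie wholly or partly inside the deposited gene, since other transcripts start further upstream.

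In liver the 10 genes made up 7.48% to 9.51% of all FPKM of a library (median 8.45%). Highest was *Apoe* with a median of 14338 FPKM over 18 livers (11662 to 16536), followed by *Apoa2*, the second protein of HDL, with 12899 (9979 to 17310) and *Apoa1*, its main protein, with 8276 (6487 to 10146). *Apoc1*, a small exchangeable apolipoprotein, had a median of 4683 FPKM (3721 to 5481) and *Apoc3* one of 1894 (1345 to 2148). *Apoa5*, whose protein promotes triglyceride hydrolysis in blood, followed with 603 (305 to 750), and *Apob*, the structural protein of VLDL, with 495 (381 to 583). *Apoa4*, which is best known from the intestine and is also made in liver, had 166 (36.0 to 813), *Mttp* 85.3 (55.9 to 95.6) and *Apoc2* 4.82 (2.37 to 8.62).

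The ranges of *Apoe* and *Apoa2*, of *Apoa2* and *Apoa1*, and of the neighbours from *Apoa5* down to *Mttp* overlapped across mice. *Apoa1* and *Apoc1*, *Apoc1* and *Apoc3*, *Apoc3* and *Apoa5*, and *Mttp* and *Apoc2* did not overlap. *Apoa4* varied most between livers, with an SD of 1.41 on the log2 scale over the 18 libraries, against 0.386 for *Apoc2* and 0.134 to 0.308 for the other 8 genes. The *Apoc2* values rest on 34 to 113 reads per liver. Reads shared with *Apoc2l* may be missing from them, so the low place of *Apoc2* is uncertain.

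**Figure D1:**
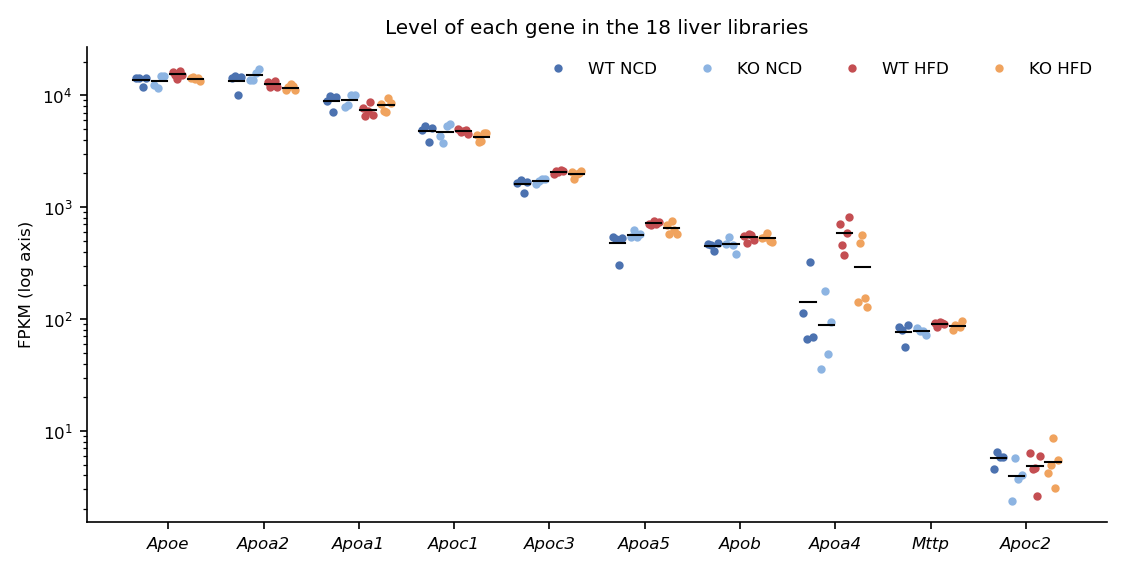
FPKM of the 10 genes in liver (log axis), with 1 point per mouse coloured by genotype and diet and a black bar at each group mean. *Apoe* to *Apoc3* lie above 1345 FPKM in each mouse, and *Apoa4* alone spreads from 36.0 to 813.

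The effect of HFD was first asked in WT liver. Here 4 of the 10 genes rose and none fell by limma on log2(FPKM + 1), at an adjusted p under 0.05. They were *Apoa4*, *Apoa5*, *Apoc3* and *Apob*, and in each of them the 5 HFD mice lay above the 4 NCD mice. The share of all genes with such a separation was not counted, so the separation describes these values and adds no support to the calls. Over all genes tested 25.3% passed the same threshold, with 13.2% higher and 12.1% lower on HFD. Fold values below are on the log2(FPKM + 1) scale, and in bulk tissue a difference in RNA per cell and a difference in the share of a cell type cannot be told apart.

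*Apoa4* had the largest difference of the 10 genes. It was 113, 66.1, 324 and 69.1 FPKM in the WT NCD mice (143 ± 123, SD, n = 4) and 701, 463, 373, 583 and 813 in the WT HFD mice (586 ± 177, SD, n = 5). The highest NCD value, that of mouse 182, lay just under the lowest HFD value of 373. The difference was 2.30 ± 0.45 (SE) on the log2 scale, 4.92-fold, with a limma adjusted p of 0.00582.

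*Apoa5*, its neighbour in the cluster, was 537, 522, 305 and 534 FPKM on NCD (474 ± 113, SD, n = 4) and 709, 698, 750, 709 and 744 on HFD (722 ± 23.3, SD, n = 5). Mouse 182, at 305, was the low value of the NCD group. The difference was 0.64 ± 0.16 (SE) on the log2 scale, 1.56-fold (limma adjusted p = 0.0172). Without mouse 182 it was 0.44 and that of *Apoa4* was 2.80, both past the threshold.

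*Apoc3* was 1634, 1755, 1345 and 1674 FPKM on NCD (1602 ± 178, SD, n = 4) and 1994, 2107, 2049, 2148 and 2087 on HFD (2077 ± 58.3, SD, n = 5). All HFD livers exceeded all NCD livers, by 0.38 ± 0.09 (SE) on the log2 scale (limma adjusted p = 0.0111). *Apob* was 464, 463, 405 and 477 FPKM on NCD (452 ± 31.9, SD, n = 4) and 557, 481, 577, 566 and 507 on HFD (537 ± 41.7, SD, n = 5). The gap between the groups was narrow, from 477 to 481, and the difference of 0.25 ± 0.08 (SE) had a limma adjusted p of 0.0427. This call was the least secure, since it was kept under only 7 of 18 alternative settings by its adjusted p.

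In the 4 genes the two-sided exact permutation test gave p = 0.0159, the smallest that 5 against 4 mice allow. After adjustment over 80 such tests, 10 genes in 8 comparisons, these values became 0.181, and none of the 80 was under 0.05. With so few mice a p at its floor passes this adjustment only if many of the tests reach it. The adjusted values therefore do not decide about the 4 calls.

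*Mttp*, the partner of *Apob* in VLDL assembly, did not pass. It was 84.9, 79.7, 55.9 and 88.5 FPKM on NCD and 91.5, 85.3, 93.7, 91.4 and 90.8 on HFD, with mouse 182 again lowest and the groups overlapping (difference 0.25 ± 0.12 SE, limma adjusted p = 0.169). The HDL genes had values below 0, namely -0.26 ± 0.13 (SE) for *Apoa1* and -0.08 ± 0.14 for *Apoa2*, neither past the threshold. Without mouse 182 both passed, at -0.36 with adjusted p = 0.0283 and -0.22 with adjusted p = 0.0447 (limma), and *Apob* no longer did (0.20, adjusted p = 0.0584). *Apoe* (0.18 ± 0.11 SE), *Apoc1* (0.01 ± 0.11) and *Apoc2* (-0.22 ± 0.19) did not pass either. The median difference of the 10 genes was 0.21, against -0.00104 over all 13330 genes tested.

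**Figure D2:**
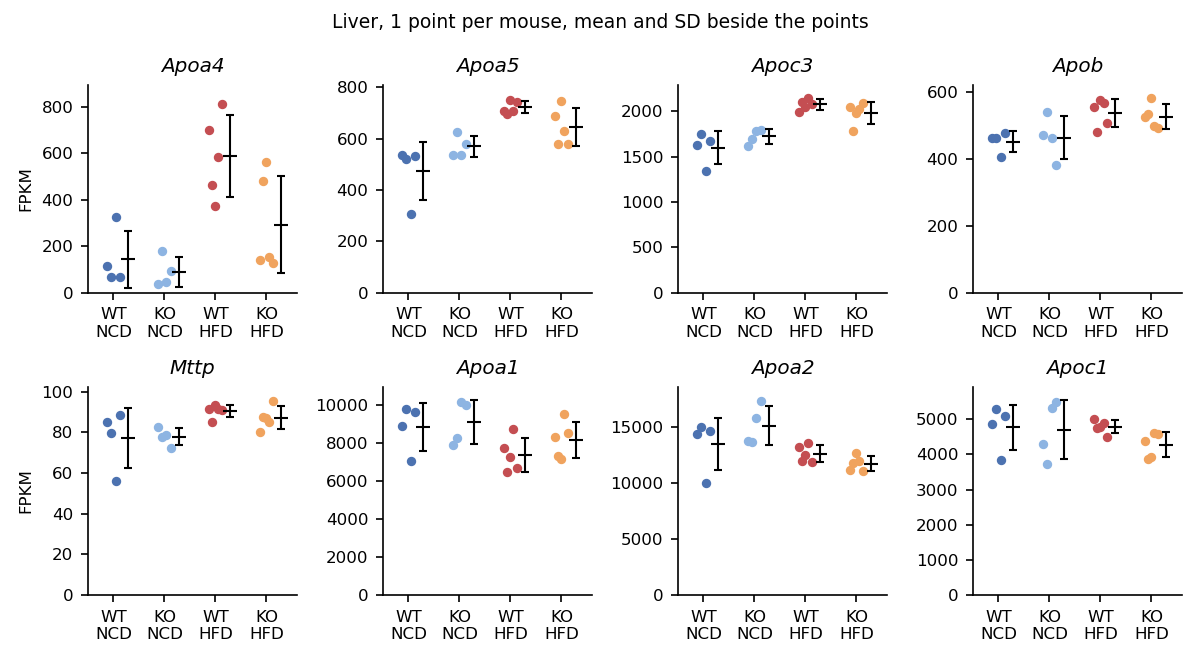
Liver FPKM of 8 of the genes, with 1 point per mouse and the group mean and SD beside the points. In WT mice *Apoa4*, *Apoa5*, *Apoc3* and *Apob* are higher in each HFD mouse than in each NCD mouse, and the KO HFD mice spread from 128 to 562 FPKM in *Apoa4*.

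In KO liver HFD lowered 1 of the 10 genes, *Apoa2*, and raised none past the threshold, beside 22.2% of all genes tested (11.9% higher, 10.3% lower). *Apoa2* was 13701, 13645, 15737 and 17310 FPKM on NCD (15098 ± 1767, SD, n = 4) and 11102, 11738, 12620, 11980 and 11079 on HFD (11704 ± 646, SD, n = 5). All KO HFD livers were below all KO NCD livers, with a difference of -0.36 ± 0.10 (SE) on the log2 scale (limma adjusted p = 0.0301, exact permutation p = 0.0159). The call was lost when mouse 197, 199, 151, 156 or 157 was left out, where the adjusted p was 0.0563 to 0.0783 (limma).

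*Apoa4* in KO liver was 36.0, 179, 48.3 and 93.2 FPKM on NCD (89.2 ± 65.0, SD, n = 4) and 142, 479, 562, 153 and 128 on HFD (293 ± 210, SD, n = 5). The groups overlapped, because NCD mouse 179 lay above 3 of the HFD mice. The difference of 1.68 ± 0.58 (SE) did not reach the threshold (limma adjusted p = 0.067), and without mouse 179 it was 2.10 with an adjusted p of 0.0312. *Apoc3* (0.20 ± 0.07 SE, adjusted p = 0.0805), *Mttp* (0.16 ± 0.07, 0.113), *Apob* (0.19 ± 0.10, 0.207) and *Apoa5* (0.17 ± 0.09, 0.217) were above 0 in the same limma fit without passing. *Apoc3* passed without mouse 152, at an adjusted p of 0.0391 (limma).

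Whether the response to HFD differed between genotypes was tested as an interaction over the 18 livers, and for none of the 10 genes did it pass, with 1 of 10 (*Apoa5*) at an unadjusted p under 0.05, none by edgeR and none by DESeq2. Over all genes 0.0151% passed, and 811 of 13248 had an unadjusted p under 0.05. The interaction estimates were -0.62 ± 0.79 (SE) for *Apoa4* and -0.47 ± 0.19 for *Apoa5* (limma adjusted p = 0.987 and 0.724). Without mouse 182 they were -1.12 and -0.27, and over all alternatives that of *Apoa4* ranged from -1.12 to -0.20 (the latter without mouse 179). The calls in WT and KO liver are therefore not shown to differ.

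**Figure D3:**
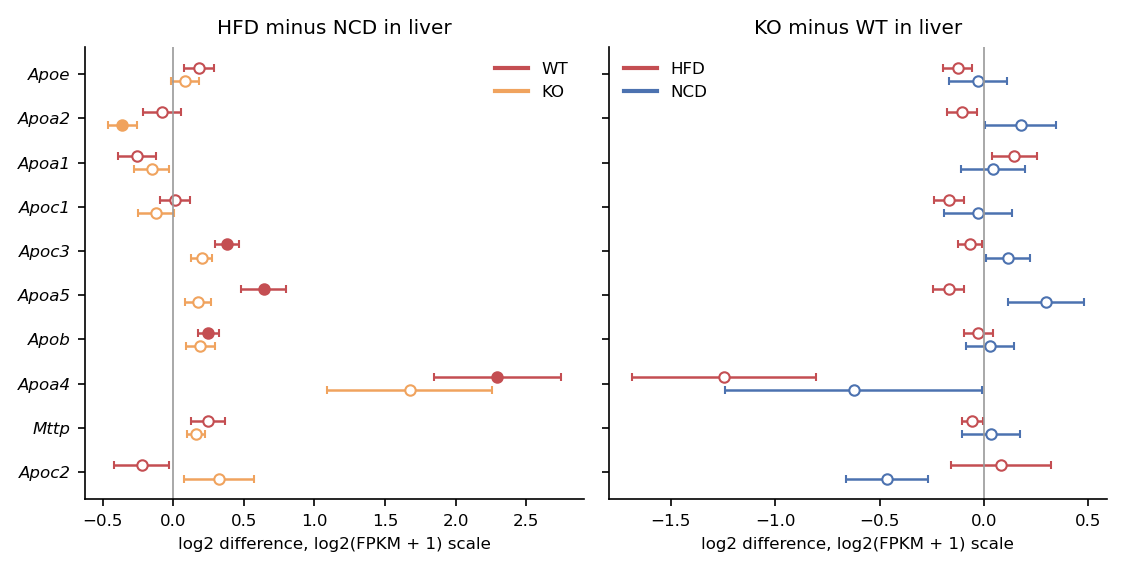
Log2 differences of the 10 genes in liver with their standard errors, for HFD minus NCD (left, WT and KO) and KO minus WT (right, HFD and NCD). Filled points passed a limma adjusted p of 0.05, which were 4 genes in WT and 1 in KO for diet and none for genotype.

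KO and WT livers were next compared on the same diet. The HFD comparison shares its WT mice with the diet comparison above, so the estimates are not independent. On HFD none of the 10 genes passed (0.197% of all genes did). Of the 10, 3 had an unadjusted p under 0.05, against 1664 of all 13215 genes tested, and edgeR and DESeq2 called none of the 10. *Apoa4* had the largest value, -1.25 ± 0.44 (SE) on the log2 scale, 0.422-fold (limma adjusted p = 0.296), and across the alternative settings its adjusted p was 0.136 to 0.533. KO mice 151, 156 and 157, at 142, 153 and 128 FPKM, lay below all WT HFD mice, and mice 152 and 153, at 479 and 562, lay within the WT range (exact permutation p = 0.0635 before adjustment).

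*Apoa5* on HFD was 690, 579, 746, 629 and 580 FPKM in KO mice and 698 to 750 in WT mice, so that 4 of 5 KO mice lay below all WT mice (-0.17 ± 0.07 SE, limma adjusted p = 0.396). *Apoc1* was 4392, 3856, 3927, 4621 and 4581 in KO against 4499 to 5003 in WT (-0.17 ± 0.07 SE, limma adjusted p = 0.387). *Apoe* was 13428 to 14441 in KO and 14020 to 16536 in WT (-0.13 ± 0.07 SE, limma adjusted p = 0.498). The exact permutation p before adjustment was 0.0635 for *Apoa5*, 0.0238 for *Apoc1* and 0.0317 for *Apoe*. After adjustment these were 0.267, 0.212 and 0.212. For the remaining 6 genes the differences on HFD lay between -0.10 and 0.15.

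On NCD none of the 10 genes passed between KO and WT liver (0.00758% of all genes did), and edgeR and DESeq2 called none. Of the 10, 1 (*Apoc2*) had an unadjusted p under 0.05, against 574 of all 13193 genes tested. *Apoc2* was 4.53, 6.50, 5.88 and 5.83 FPKM in WT and 2.37, 5.73, 3.72 and 4.02 in KO livers (-0.46 ± 0.19 SE, limma adjusted p = 0.996), from 35 to 99 reads. *Apoa5* was 537, 625, 537 and 579 in KO livers, all above the WT maximum of 537, 2 of them by less than 1 FPKM (0.30 ± 0.18 SE, limma adjusted p = 0.996, exact permutation p = 0.0286, the smallest for 4 against 4). Without mouse 182 the difference was 0.098.

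The order of the group means differed between members in liver. For *Apoa4* it was WT HFD, KO HFD, WT NCD and KO NCD, with 586, 293, 143 and 89.2 FPKM, and each neighbour in this order overlapped the next. *Apoa5* ran WT HFD, KO HFD, KO NCD and WT NCD, with 722, 645, 570 and 474, and only the NCD neighbours were apart. *Apoa2* ran KO NCD, WT NCD, WT HFD and KO HFD, with 15098, 13469, 12582 and 11704, all neighbours overlapping. *Apoa1* ran KO NCD, WT NCD, KO HFD and WT HFD, with 9079, 8830, 8150 and 7370, again all overlapping.

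The genes nearest to *Apoa4* in their pattern over the 18 livers, by the root mean square difference of centred log2 values among 13248 genes, were *Gm11695* (0.611), *Slc16a5* (0.675) and *Cntnap1* (0.720). *Gm11695*, a long noncoding RNA, averaged 2.35 FPKM in WT NCD, 1.17 in KO NCD, 9.88 in WT HFD and 4.28 in KO HFD livers. The nearest to *Apoc2* were *Tmem101* (0.275), *Gm20636* (0.278) and *Ywhaq-ps3* (0.287).

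Other genes of lipoprotein metabolism were counted in lists. In WT liver HFD raised 6 and lowered 5 of 19 genes of VLDL assembly and secretion. *Sort1*, a sorting receptor that binds apolipoprotein B, fell by 1.27 on the log2 scale and *Soat2*, a cholesterol esterifying enzyme, fell by 0.69, while *Dgat2* (0.72), which makes triglyceride, and *Ces1d* (0.67), a lipid hydrolase, rose. In KO liver 3 of 19 rose and 5 fell, with *Sort1* at -1.22, *Soat2* at -0.90, *Dgat2* at 0.87 and *A1cf*, a cofactor of *Apob* mRNA editing, at 0.43.

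Of 9 tested genes of HDL formation and remodelling, 3 rose and 1 fell in WT liver and the counts were the same in KO liver. By DESeq2 2 rose and 2 fell in WT and 5 rose and 1 fell in KO. *Pltp*, the phospholipid transfer protein, was at -2.60 in WT and -2.96 in KO, and *Saa1*, an acute phase apolipoprotein, at 2.91 and 2.31. *Saa2*, a close copy whose reads may be split with *Saa1*, was at 2.77 in WT. The others named were *Abca1* (0.30), the lipid exporter that starts HDL, in WT, and *Pon1* (0.29) and *Lcat* (0.28), both enzymes carried on HDL, in KO.

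Of 6 other apolipoproteins tested, *Clu* rose in WT (0.43) and *Clu* and *Apon* in KO (both 0.34). In WT liver on the TPM scale 3 of the 6 rose and 1 fell, and 2 rose and 1 fell by DESeq2. The counts of each list stand beside 25.3% and 22.2% of all genes.

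Of 18 regulators of apolipoprotein genes 5 rose and 6 fell in WT liver, and 6 rose and 3 fell in KO liver. On the TPM scale these counts were 8 and 5 in WT and 7 and 2 in KO, so that which direction was the more frequent in WT depends on the scaling. The clock repressor *Nr1d1* was at -2.45 in WT and -1.93 in KO, and the coactivator *Ppargc1a* at -1.09 in WT, and it also fell in KO. In WT liver *Nr0b2*, a repressor of bile acid synthesis, was at -2.01 and its activator *Nr1h4*, the bile acid receptor, at 0.98. In KO liver *Srebf1*, which drives lipid synthesis, was at 1.39 and *Ppara*, the fatty acid receptor, at 0.89. Between KO and WT none of the genes of these lists passed in limma in either tissue on either diet, while DESeq2 called 1 regulator higher in KO in HFD liver and 1 in HFD visWAT. Hepatocyte markers outside the apolipoproteins also moved with diet, 1 of 11 higher and 5 lower in WT liver and 3 higher and 5 lower in KO liver, and their part in the member results was not tested.

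In visWAT most of the 10 genes were near 0. All 10 were higher in liver than in visWAT of WT mice on both diets. Of all genes 34% were higher in liver on NCD (65.5% passed in either direction) and 43% on HFD (84.6%). For *Apoe* the difference was 3.34 ± 0.43 (SE) on NCD and 3.38 ± 0.08 on HFD, and for *Apoc1* it was 5.20 ± 0.26 and 6.86 ± 0.12. For *Apoa2* it was 12.12 ± 0.19 and for *Apoa1* 11.95 ± 0.30 on NCD. For genes near 0 in visWAT these values depend on the 1 FPKM added before taking logs, and the genes are therefore not ranked by them. *Apoc2* was at 2.70 on NCD with 1 FPKM added and at 5.59 with 0.1, and *Apob* at 8.78 and 11.8, while *Apoe* was at 3.34 with either. Over all alternative settings *Apoe* ranged from 2.69 to 3.56 on NCD and from 2.28 to 3.45 on HFD. RNA of fat and liver was extracted with different reagents, which cannot be told apart from the tissue. The mouse number as a block, with both tissues of a mouse paired, left all 10 calls in place on both diets.

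As a share of the level in the liver of the same mouse, *Apoe* in visWAT had a median of 11.9% over 18 mice (4.70% to 17.97%), *Apoc1* 1.78% (0.620% to 4.11%) and *Mttp* 0.647% (0.342% to 2.56%). These shares depend on the scaling, since FPKM summed to 468955 to 549786 per liver and 227793 to 564718 per visWAT library. As a share of all FPKM of its library, *Apoe* had a median of 2.72% in liver and 0.645% in visWAT. The remaining members are again given relative to the liver level of the same mouse. Their medians were 0.0572% for *Apoc3*, 0.0167% for *Apoa2*, 0.0122% for *Apoa1*, 0.00655% for *Apoa5*, 0.00463% for *Apob* and 0.00392% for *Apoa4*. *Apoc2* was at 0 in 10 of the 18 visWAT libraries. The 10 genes together made up 0.232% to 1.22% of a visWAT library's FPKM (median 0.691%), nearly all of it *Apoe*.

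The rare members stood out in the visWAT of mouse 156 (KO HFD), where *Apoa1* was 131 FPKM against 0.0738 to 4.63 in the other KO HFD mice, *Apoa2* 241 against 0.516 to 6.49 and *Apoc3* 42.0 against 0.243 to 2.24. Relative to its own liver these were 1.38%, 2.01% and 2.07%, and *Apoa5*, *Apob* and *Apoa4* were 1.83%, 0.789% and 6.29%. Hepatocyte markers that are not apolipoproteins were high in the same library, at 0.747% to 2.56% of the liver level (median 1.31%) over 10 markers such as *Alb* and *Ttr*. Mice 164 (WT HFD) and 199 (KO NCD) had medians of 0.255% and 0.102% over these markers, and the other 15 mice 0.00224% to 0.0309%. Summed, the 10 markers reached 11.1 to 19.1 FPKM in WT NCD, 10.1 to 69.3 in KO NCD, 2.48 to 98.1 in WT HFD and 2.22 to 740 in KO HFD visWAT, and none was at 0 in all libraries of a group. Their part in the values of the members was not tested. *Cyp2e1*, also on the hepatocyte list, was left out of this share because fat itself held a median of 6.53% of the liver level over 18 mice. The highest share, 69.8%, was that of WT NCD mouse 182. Its visWAT level of 954 FPKM lay within the 840 to 1957 of the other WT NCD mice.

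**Figure D4:**
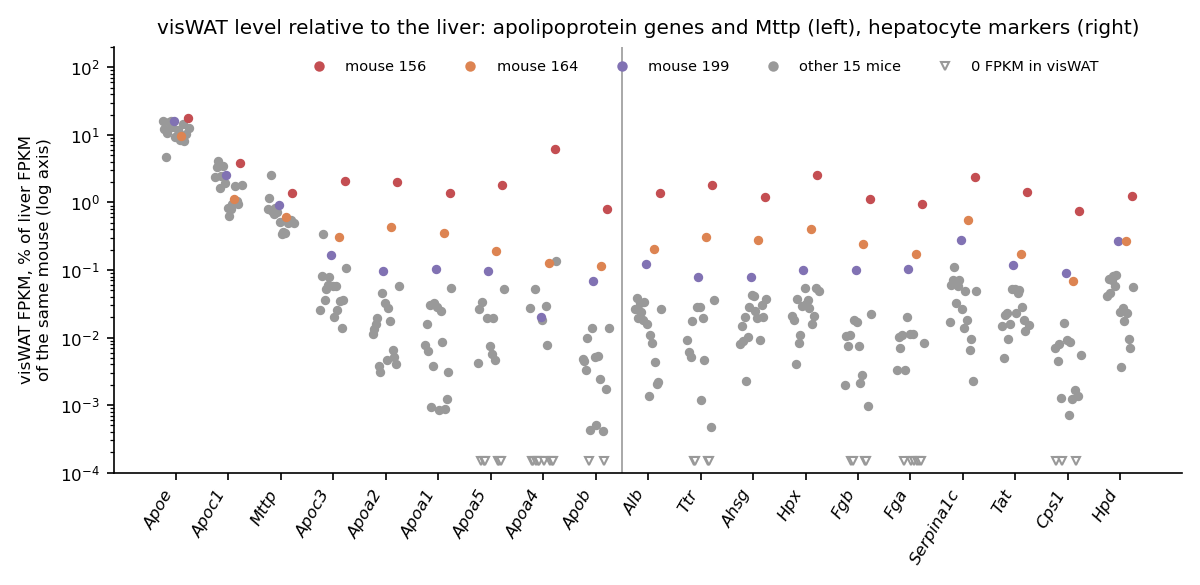
visWAT FPKM as a percentage of the liver FPKM of the same mouse (log axis), for 9 members left of the line and 10 hepatocyte markers right of it, with 1 point per mouse and open triangles for 0 in visWAT. Mouse 156 is the top point of each hepatocyte marker and of *Apoa1*, *Apoa2*, *Apoa4*, *Apoa5*, *Apob* and *Apoc3*, while *Apoe* and *Apoc1* lie above 0.620% in all 18 mice.

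HFD lowered 2 of the 6 members that could be tested in WT visWAT, *Apoc1* and *Mttp*, and raised none. Over all genes 37.8% passed (21.9% higher, 15.8% lower). *Apoa4*, *Apoa5*, *Apob* and *Apoc2* stayed under the mean of 0.5 FPKM needed for the test. *Apoc1* was 115, 176, 158 and 83.8 FPKM on NCD (133 ± 41.8, SD, n = 4) and 40.8, 29.4, 37.9, 46.1 and 50.4 on HFD (40.9 ± 8.02, SD, n = 5). Every HFD mouse was below every NCD mouse, with a difference of -1.64 ± 0.23 (SE), 0.320-fold (limma adjusted p = 0.000473, exact permutation p = 0.0159).

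*Mttp* was 0.675, 0.942, 1.43 and 0.658 FPKM on NCD (0.927 ± 0.362, SD, n = 4) and 0.467, 0.292, 0.340, 0.325 and 0.555 on HFD (0.396 ± 0.111, SD, n = 5), from 54 to 241 reads. The groups did not overlap, and the difference was -0.45 ± 0.13 (SE, limma adjusted p = 0.0192). At this level the size of the difference depends on the 1 FPKM added before taking logs. It ranged from -1.28 to -0.33 over the alternative settings. On the TPM scale, where every library is set to the same sum, the median of all genes moved up by 0.46 in this comparison. There *Apoc1* was at -1.18 with a limma adjusted p of 0.0401 and *Mttp* no longer passed (adjusted p = 0.191). The visWAT library of WT NCD mouse 183 summed to 564718 FPKM, of which seminal vesicle genes made up 247986. The other WT visWAT libraries summed to 227793 to 309820. The part of mouse 183 in the TPM results was not tested.

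*Apoe* in WT visWAT was 2252, 1723, 554 and 1528 FPKM on NCD and 1481, 1458, 1642, 1394 and 1439 on HFD, with mouse 182 lowest by far (0.14 ± 0.36 SE, limma adjusted p = 0.789). *Apoa1* (0.58 ± 0.80 SE), *Apoa2* (0.94 ± 0.84) and *Apoc3* (0.01 ± 0.54) did not pass. Cell type markers moved with diet in the same libraries. All 12 macrophage markers rose in WT visWAT, from summed levels of 331 to 443 FPKM on NCD to 2611 to 3755 on HFD, and 7 of 10 mature adipocyte markers fell and 1 rose, from 8741 to 20138 down to 3808 to 4852. No marker of either list was at 0 in all libraries of a visWAT group, and their part in the *Apoc1* and *Mttp* values was not tested.

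**Figure D5:**
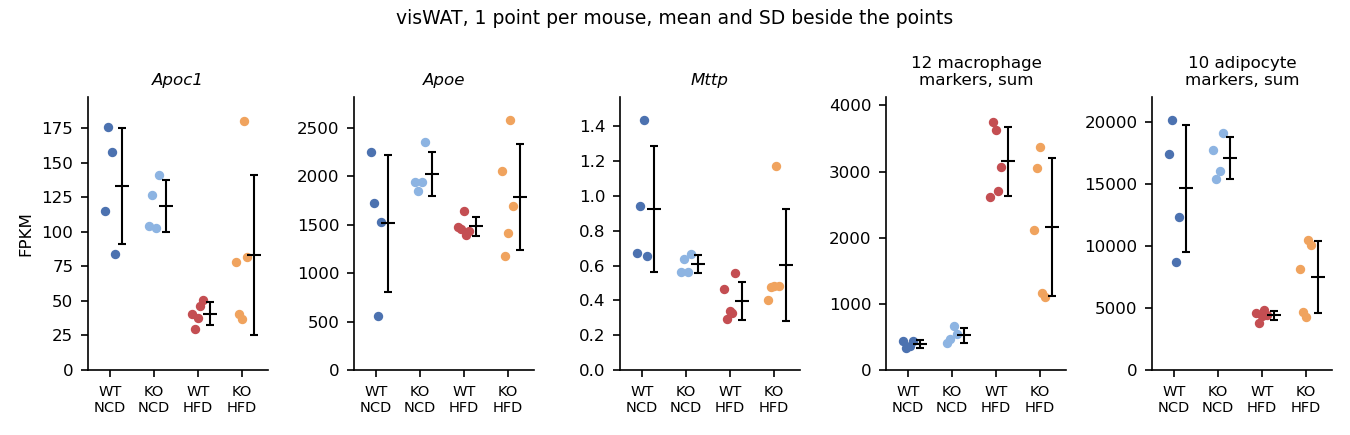
visWAT FPKM of *Apoc1*, *Apoe* and *Mttp* and summed FPKM of 12 macrophage and 10 mature adipocyte markers, with 1 point per mouse and the group mean and SD beside the points. WT HFD mice lie at 29.4 to 50.4 FPKM of *Apoc1*, below all NCD mice, while KO HFD mice spread from 37.1 to 180.

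In KO visWAT none of the 8 members tested passed for diet by limma or DESeq2, where 43.7% of all genes passed by limma, and edgeR called 1, *Apoa4*. None of the 8 had an unadjusted limma p under 0.05, against 7344 of all 14026 genes tested. DESeq2 gave no adjusted p for 5 of the 8. *Apoa4* and *Apoa5* reached the mean of 0.5 FPKM only through mouse 156, here and in the interaction below. They were 9.64 and 11.5 FPKM in that mouse and at most 0.172 and 0.561 in the other KO visWAT libraries. *Apoc1* was 104, 127, 103 and 141 FPKM on NCD (119 ± 18.6, SD, n = 4) and 77.9, 40.6, 37.1, 180 and 82.0 on HFD (83.6 ± 57.9, SD, n = 5). Mouse 156, at 180, was above all NCD mice and the other 4 HFD mice were below them (-0.73 ± 0.41 SE, limma adjusted p = 0.179). Without mouse 156 the difference was -1.06 with an adjusted p of 0.0135, and without mice 156 and 199, the KO visWAT libraries with the most hepatocyte transcripts, it was -0.98 with an adjusted p of 0.0393 (limma, chosen after the values were seen). *Apoa4* in edgeR rests on mouse 156, with 516 reads, and mouse 157, with 10, since the other 3 HFD mice had 0.

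*Mttp* in KO visWAT was 0.565, 0.640, 0.563 and 0.667 FPKM on NCD and 0.402, 0.477, 0.482, 1.17 and 0.482 on HFD, mouse 156 being the high value (-0.02 ± 0.13 SE, limma adjusted p = 0.892). *Apoe* was 1944, 1847, 1946 and 2355 on NCD and 2053, 1181, 1420, 2580 and 1699 on HFD (-0.23 ± 0.22 SE, limma adjusted p = 0.425). Of the macrophage markers 10 of 12 rose with HFD in KO visWAT, and 5 of 10 mature adipocyte markers fell and 2 rose. In the interaction over 18 visWAT libraries none of 8 members passed and neither did any gene of the table (0%, with 1867 at an unadjusted p under 0.05), with 1 member (*Mttp*) at an unadjusted p under 0.05 and none by edgeR or DESeq2, the latter without an adjusted p for 5. The estimates were 0.92 ± 0.50 (SE) for *Apoc1* and 0.43 ± 0.18 for *Mttp* (limma adjusted p = 0.425 and 0.357), and that of *Apoc1* was 0.58 without mouse 156.

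KO and WT visWAT did not differ past the threshold in any member on HFD (0 of 7 tested, 0.0215% of all genes) or on NCD (0 of 6, 0% of all genes). Over all genes 3003 on HFD and 528 on NCD had an unadjusted p under 0.05. No member reached an unadjusted p under 0.05 on either diet, and edgeR and DESeq2 called none, DESeq2 giving no adjusted p for 5 of the 7 on HFD. Of these 7, *Apoa4* and *Apoa5* passed the filter on low values only through mouse 156. On HFD *Apoc1* had 0.79 ± 0.38 (SE, limma adjusted p = 0.241), and 0.46 without mouse 156, and *Apoe* 0.22 ± 0.19 (adjusted p = 0.484). On NCD *Apoe* had 0.58 ± 0.41 (SE) and *Apoc1* -0.12 ± 0.24, with limma adjusted p of 0.916 and 0.938. Without WT NCD mouse 182 the *Apoe* value was 0.15.

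Values of the 5 KO HFD mice were set side by side across tissues, which was chosen after they were seen. Mice 152 and 153 lay within the WT HFD range for liver *Apoa4* (479 and 562 FPKM, WT HFD 373 to 813) and for visWAT *Apoc1* (40.6 and 37.1, WT HFD 29.4 to 50.4). They also did so for the summed macrophage markers in visWAT (3059 and 3376, WT HFD 2611 to 3755) and the summed adipocyte markers there (4692 and 4255, WT HFD 3808 to 4852). Mice 151, 156 and 157 lay outside these ranges in the same 4 measures, with liver *Apoa4* of 142, 153 and 128, visWAT *Apoc1* of 77.9, 180 and 82.0, macrophage sums of 2119, 1166 and 1108 and adipocyte sums of 8154, 10475 and 10059. *Cidec*, a lipid droplet gene from the adipocyte list, was 63.3 and 78.0 FPKM in the livers of mice 152 and 153, 59.1 to 96.0 in WT HFD livers and 13.8, 16.4 and 6.55 in mice 151, 156 and 157. Other measures did not fall the same way. Mouse 152 lay below the WT HFD range for liver *Apoa5* (579 against 698 to 750 FPKM), visWAT *Apoe* (1181 against 1394 to 1642) and the summed adipocyte markers in liver (133 against 139 to 211), and for *Cfd* in liver mouse 156 (7.29) lay within the WT HFD range of 5.57 to 57.5. *Mlkl* in visWAT was 2.32 to 2.72 in all 5 mice, below each WT HFD mouse. These are 5 animals, no groups were tested, and the part of fat composition in the liver values was not tested.

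The same lists were counted in visWAT, where 37.8% of all genes passed for diet in WT and 43.7% in KO. Of 13 tested genes of VLDL assembly and secretion 1 rose and 4 fell in WT mice, and 4 rose and 3 fell in KO mice. *Apobec1*, the editing enzyme of *Apob* mRNA that is also found in immune cells, was at 3.14 in WT and 2.06 in KO, *Ces1d* at -1.73 and -1.26, and *Sort1* at -0.94 and -0.73. *Dgat1*, a triglyceride synthase, was at -0.75 in WT, and *P4hb*, the partner subunit of MTTP, at 0.60 in KO.

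Of the HDL genes *Pltp* (2.72 and 2.01) and the cholesterol exporter *Abcg1* (2.08 and 1.45) rose in both, out of 6 tested in WT and 5 in KO, and *Abca1* fell by 0.42 in KO. Of the other apolipoproteins none of 4 passed in WT and 1 of 6, *Apod* (-0.75), in KO. Of the regulators 5 of 12 fell and 1 rose in WT and 7 of 13 fell and 1 rose in KO. *Srebf1* was at -1.24 and -0.92, *Nr1d1* at -1.07 and -0.68, *Foxo1* at -1.03 and -0.94 and *Cebpa* at -0.91 and -0.80. On the TPM scale in WT visWAT the counts became 3 up and 1 down of 16 for VLDL assembly and 1 up and 0 down of 14 for regulators, so the falls of *Sort1*, *Dgat1* and these 4 regulators in WT did not pass there, though their direction was kept. The large FPKM sum of WT NCD mouse 183, with its seminal vesicle genes, enters this scaling too, and its part was not tested.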

How the data were processed

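RNA-seq of liver and epididymal fat from 18 male mice (36 libraries) was used, grouped by genotype and diet from the sample labels. Polyadenylated RNA was sequenced, and the authors mapped the trimmed reads to mm39 and assigned them to genes with featureCounts 1.5.0-p3 (submitters' processing notes). Strandedness and annotation release are not given in the sources used here. The deposited table holds FPKM for 56748 genes, made by the authors from reads, gene length and a library size. Counts of reads deposited in the authors' comparison tables gave that size, from which all FPKM came out as whole reads (100%, tolerance 0.1 read). Relative to the reads on genes it was 0.737 to 0.812 in liver and 1.01 to 1.40 in visWAT, so the FPKM contain a scaling between libraries. The authors' own log2 fold changes and p-values, the pathway tables and 72 further per-sample columns were not used.

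The main test was limma 3.58.1 (R 4.3.3) on log2(FPKM + 1), empirical Bayes with trend, and only the 2 groups compared (all 18 libraries of a tissue for the interaction). Genes needed a mean of at least 0.5 FPKM over the libraries compared. P-values were Benjamini-Hochberg adjusted over all genes tested, with a threshold of 0.05. Single genes were also compared by two-sided exact permutation tests, adjusted over 10 genes and 8 comparisons. As alternatives, 0.1 was added before taking logs, the filter was removed or raised to 1 FPKM, libraries were scaled to TPM, and further fits used edgeR 4.0.16 and DESeq2 1.42.0 on the recovered reads, an absolute log2 difference of at least 1, all 4 groups of a tissue in 1 fit, the mouse number as a block between tissues and leaving out mice. The scripts were tested on simulated data. Promoters were read from GRCm39 with GENCODE vM39 starts.

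All 10 members are named with values. Of each other list, at most 4 genes past the threshold were named per comparison, by the size of the log2 difference. The receptor and clearance list is not reported here. The members and lists were chosen with earlier results of these data known. At this depth a gene listed at 0 may have been missed. No replicate libraries were alike, with at least 21275 genes differing in counts in each of 64 pairs. The mice are separate animals.

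Whether tissues of a mouse deviate together was checked by the correlation of their deviations from group means over 11489 genes, which was -0.0659 to 0.237. The tissues are paired because they come from the same mouse.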

Additional observations from a re-analysis of the deposited data

Results flagged for a closer look

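Within groups of 4 or 5 mice, a value was singled out when its gap to the nearest other value, as a share of the range of the group, passed the 95% critical value of Dixon's test. This marked 17 of 79 groups, where chance marks about 1 in 20, and the groups are not independent since the same libraries recur. No explanation was tested.

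In liver 3 values were marked, all the lowest of WT NCD mouse 182. They were *Apoa2* (9979 FPKM against 14319 to 14992 in the other 3 mice), *Apoa5* (305 against 522 to 537) and *Apoe* (11783 against 14134 to 14414).

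In visWAT 14 values were marked, each the highest of its group. Mouse 156 (KO HFD) had 7, namely *Apoa1* (131 FPKM against at most 4.63 in the other mice), *Apoa2* (241 against 6.49), *Apoa4* (9.64 against 0.172), *Apoa5* (11.5 against 0.309), *Apob* (3.93 against 0.0693), *Apoc3* (42.0 against 2.24) and *Mttp* (1.17 against 0.482). Mouse 164 (WT HFD) had 6, namely *Apoa1* (23.5 against at most 2.19), *Apoa2* (50.4 against 4.24), *Apoa4* (1.02 against 0.127), *Apoa5* (1.43 against 0.148), *Apob* (0.586 against 0.0303) and *Apoc3* (6.36 against 1.17). Mouse 199 (KO NCD) had 1, *Apoa4* at 0.0190 FPKM, which is 1 read, against 0 in the other 3 mice. The hepatocyte markers of these 3 libraries are given with the visWAT results above, and their part in these values was not tested.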

How the results depend on the processing

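In the counts of members past the threshold, 205 of 224 recomputed values stayed within 1.5 times the value reported or at 0. Those that did not were these. For HFD against NCD in WT liver (4 members), 2 passed with no filter on low values and 1 with a log2 difference of at least 1, and leaving out 1 mouse gave 3 to 5. For KO liver (1 member), 0 passed with no filter, 0 with a log2 difference of at least 1, 2 by DESeq2 (*Apoc3* added) and 2 with all 4 groups in 1 fit (*Apoa4* added), and leaving out 1 mouse gave 0 to 2. For WT visWAT (2 members), 1 passed with a mean of at least 1 FPKM (*Mttp* was not tested there), 1 on the TPM scale and 1 with a log2 difference of at least 1, and leaving out 1 mouse gave 2 to 2. For KO visWAT (0 members), 1 passed by edgeR (*Apoa4*, 8.22, adjusted p = 0.0495) and 1 without the libraries with hepatocyte transcripts (*Apoc1*), an alternative chosen after seeing the data, and leaving out 1 mouse gave 0 to 1. Beyond what each setting does by construction, the cause was not tested. The comparisons of KO with WT and the interactions gave 0 members under each alternative run, and the tissue comparisons 10, except 9 on NCD with no filter (*Apoe*, adjusted p = 0.0991, not past it) and 5 on HFD by DESeq2, which gave no adjusted p for the other 5. With the mouse number as a replicate block the tissue comparisons gave 10 and 10 members and the block changed no call.

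Of the single genes, 1 value without a call as reported changed sign and passed the threshold. *Apoe* for HFD against NCD in WT visWAT was 0.14 (limma adjusted p = 0.789) and -0.41 without mice 182 and 183 (adjusted p = 0.0405). A further 87 values of members changed sign without a call in either setting, 25 lost a call and 9 gained one. On the TPM scale the median of all genes moved by 0.36 for KO against WT on NCD and by -0.11 on HFD in visWAT, by -0.47 in the visWAT interaction, by -0.61 and -1.04 between tissues on NCD and HFD, and by less than 0.07 in liver. Those with visWAT of WT NCD mice include mouse 183 with its large FPKM sum.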
